A study of Mus musculus with 8 samples.

Results

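The genes described here encode the FOS proteins (Fos, Fosb, Fosl1, Fosl2), the JUN proteins (Jun, Junb, Jund), ATF3 and 2 small MAF proteins (Maff, Mafk), taken by symbol from the deposited tables. All 10 were found, each on 1 of the 78298 rows, and all 10 passed the low-count filter that kept 17128 rows. They were measured in 4 libraries of NIH3T3 cells given Mic-628 and 4 of NIH3T3 cells given vehicle. NIH3T3 is a wild-type line of mouse embryonic fibroblasts, and both groups were grown in the same serum-containing medium and collected after 1 day. The series title speaks of a Period1 inducer that shifts the mouse circadian clock forward. Each group is 1 cell line in culture, the labels give no dose, and they do not say whether the 4 libraries came from separate cultures. The spread behind every p-value is therefore that among the 8 libraries, and part or all of it may be technical. In bulk RNA, fewer expressing cells and less RNA per cell cannot be told apart.

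AP-1 is not a single protein but a set of dimers. FOS proteins cannot pair with one another and join a JUN protein, while JUN proteins also pair among themselves. The dimers bind the TPA response element, or TRE, through a basic region next to a leucine zipper. ATF3 pairs with JUN proteins and others and binds the related cyclic AMP response element, or CRE, mostly as a repressor. Small MAF proteins have no activation domain and serve as partners for the CNC factors such as NRF2 and BACH1. In fibroblasts, serum and growth factors raise Fos, Fosb, Jun and Junb within minutes to hours as immediate early genes. Fos mRNA then decays fast, and Fosl1 and Fosl2 carry much of the FOS protein pool in cells that keep growing.

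The cells carried the defining transcripts of fibroblasts. The summed FPKM (fragments scaled to exon length and library total) of 7 fibroblast markers was 3827 to 3929 in Mic-628 libraries and 4394 to 4566 in vehicle libraries. These ranges do not overlap. The sum was carried by Vim, with a mean of 1831 FPKM with Mic-628 and 2127 FPKM with vehicle, and Fn1, with 1320 FPKM with Mic-628 and 1599 FPKM with vehicle; Col1a2 and Col3a1 were also lower in every Mic-628 library, while the ranges of Col1a1, Thy1 and Pdgfrb overlapped. The part of this difference in the values below was not tested. The 4 epithelial markers summed to 1.36 to 2.11 FPKM with Mic-628 and 1.38 to 1.63 FPKM with vehicle, nearly all of it Krt14, with Epcam at 0 in 6 libraries and Cdh1 in 7. The 4 endothelial markers summed to 0.137 to 0.173 FPKM with Mic-628 and 0.142 to 0.271 FPKM with vehicle. The 5 leukocyte markers summed to 0.037 to 0.070 FPKM with Mic-628 and 0.021 to 0.047 FPKM with vehicle, with Adgre1 and Cd3e at 0 in all 8 libraries and Ptprc above 0 in all 8. Counts on listed transcripts were 18.1 M to 23.2 M per library.

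Of the 10 genes, 4 changed with Mic-628 at an adjusted p under 0.05 by edgeR's quasi-likelihood test: Atf3 and Jun rose, and Junb and Fosl2 fell. The other 6 were not called. Over all rows tested, 4.37% were called, 2.13% higher and 2.25% lower. The changes were small: log2 fold changes of the 4 called genes ran from -0.24 for Junb to 0.45 for Atf3, against a median absolute change of 0.21 among all called rows. The median log2 fold change of the 10 genes was 0.05, and that of all rows tested was -0.0040. CPM are counts scaled to the library total after TMM adjustment. The CPM of the 2 groups did not overlap for 5 of the 10 genes, the 4 called ones and Fos. Of all rows tested, 10.7% had no overlap.

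**Figure D1:**
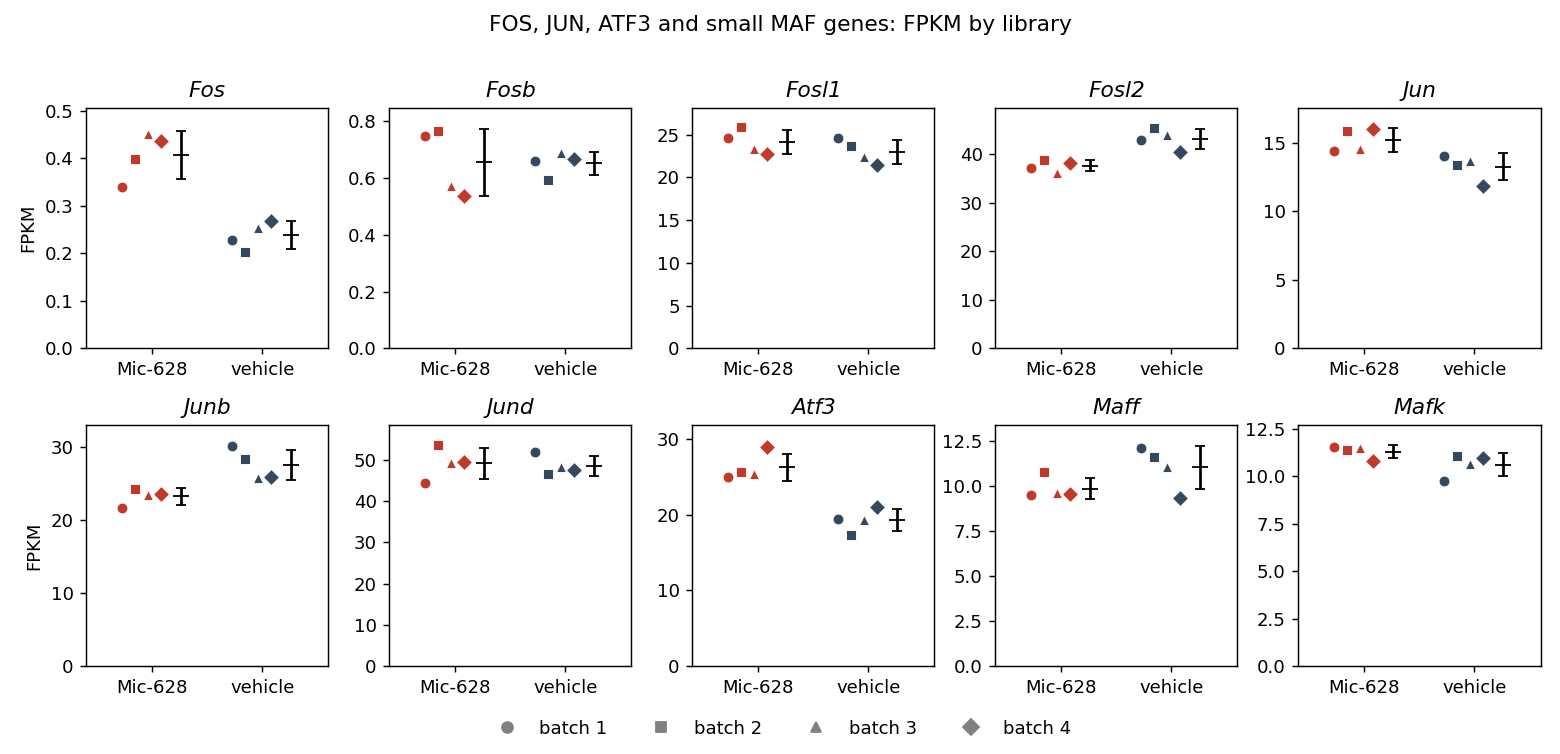
FPKM (vertical axis, from 0, own scale for each gene) of the 10 genes in the 4 Mic-628 libraries (red) and the 4 vehicle libraries (dark blue), with the shape of a point giving its batch and the black bar the mean ± SD. All 4 Mic-628 libraries lie above all 4 vehicle libraries for Fos, Jun and Atf3, and below them for Fosl2 and Junb.

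The promoters of the 4 genes that changed are shown because the family is known to act on its own members. The Jun promoter carries a TRE-like site through which JUN and ATF2 act, and the human ATF3 promoter a CRE-like site at which ATF3 represses its own gene. The sequences are the 250 bases before the RefSeq start on build GRCm38.p6, 5′ to 3′ on the strand of the gene: chr1:191183334-191183583 (minus strand) for Atf3, chr4:95052223-95052472 (minus) for Jun, chr8:84978749-84978998 (minus) for Junb and chr5:32136222-32136471 (plus) for Fosl2. Capitals mark matches to the searched motifs other than the Sp1 box.
Atf3: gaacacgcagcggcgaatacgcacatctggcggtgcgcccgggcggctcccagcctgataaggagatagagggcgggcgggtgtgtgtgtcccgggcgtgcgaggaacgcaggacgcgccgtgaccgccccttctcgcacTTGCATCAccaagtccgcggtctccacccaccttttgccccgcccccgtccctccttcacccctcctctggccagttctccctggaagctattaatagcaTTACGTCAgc
Jun: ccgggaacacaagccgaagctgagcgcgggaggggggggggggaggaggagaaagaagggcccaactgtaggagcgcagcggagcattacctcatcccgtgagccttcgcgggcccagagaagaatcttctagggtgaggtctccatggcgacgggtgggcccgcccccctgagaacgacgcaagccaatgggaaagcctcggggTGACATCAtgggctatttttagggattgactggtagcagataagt
Junb: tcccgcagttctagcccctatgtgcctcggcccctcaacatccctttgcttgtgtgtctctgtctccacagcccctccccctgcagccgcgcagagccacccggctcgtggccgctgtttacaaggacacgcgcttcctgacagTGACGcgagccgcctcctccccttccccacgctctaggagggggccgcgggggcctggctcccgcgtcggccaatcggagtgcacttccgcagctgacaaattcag
Fosl2: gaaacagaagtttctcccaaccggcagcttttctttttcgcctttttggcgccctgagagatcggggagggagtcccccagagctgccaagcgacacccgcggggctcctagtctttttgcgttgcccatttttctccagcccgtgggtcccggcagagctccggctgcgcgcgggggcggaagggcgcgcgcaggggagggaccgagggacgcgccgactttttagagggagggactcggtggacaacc

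The motifs were searched on both strands in windows of 250 bases before to 50 bases after the start, which were found for 9 of the 10 genes (Fosl1 had none). Atf3 had TTACGTCA, a CRE-like form, at -10 to -3 from the start, a motif held by 0.499% of the 32851 RefSeq windows. It also had TGATGCAA, a C/EBP-ATF composite element, on the opposite strand at -110 to -103, a motif held by 0.895% of windows. Jun had the TRE-like TGACATCA at -45 to -38, which 3.62% of windows held. Junb had only TGACG, the short core of a CRE, at -106 to -102, which 20.8% of windows held. That core lies inside both the full CRE and the CRE-like form of Atf3, so these matches overlap. In the Fosl2 window the Sp1 box GGGCGG was the only searched motif found, at -75 to -70 (35.7% of windows). Neither the TRE TGANTCA (7.81% of windows) nor the CArG box bound by SRF (1.63%) was found in the windows of these genes or of the others. Sites more than 250 bases before the start were not searched, so a promoter may still hold either motif there. Among the uncalled genes, Fos had TGACG at -129 to -125 and at -66 to -62, Fosb at -60 to -56 and Mafk at -41 to -37. Of the 3 Maff windows, 1 had TGACATCA at -45 to -38 and TGACG on the opposite strand at -122 to -118. Another Maff window had the full CRE TGACGTCA at -29 to -22 (1.79% of windows). That Maff window and the Mafk window each had an E-box, CACGTG (7.15% of windows). A match says only that the letters are there. The windows belong to the RefSeq starts: the counted Atf3 row spans 47.7 kb on mm39 while the RefSeq gene spans 13 kb, so the start of that row may be another one. The same limit holds for Jund, whose counted row spans 1.67 kb while the RefSeq gene spans 2.88 kb.

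Atf3, the stress-inducible ATF gene, changed most clearly of the family. The counted transcript is ENSMUST00000195117.2 (mm39, chromosome 1, 190902493 to 190950236, minus strand). Its level was 25.1, 25.7, 25.5 and 29.0 FPKM in Mic-628 replicates 1 to 4, against 19.5, 17.4, 19.4 and 21.0 FPKM in vehicle replicates 1 to 4. The lowest Mic-628 library was above the highest vehicle library. Atf3 averaged 26.3 ± 1.79 FPKM with Mic-628 and 19.3 ± 1.51 FPKM with vehicle (SD, n = 4 each). That is a fold change of 1.36 (95% interval 1.26 to 1.47; edgeR adjusted p = 3.86e-06). Within batches 1 to 4, the log2 difference in CPM was 0.37, 0.56, 0.39 and 0.46. Atf3 was thus higher in the Mic-628 library of each batch, which the lack of overlap requires under any pairing of the libraries.

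The JUN genes went in different directions. Jun (ENSMUST00000107094.2, chromosome 4, 94937271 to 94940459, minus strand) encodes c-Jun, the main activating partner of the FOS proteins. It had 14.4, 15.8, 14.6 and 16.0 FPKM in Mic-628 replicates 1 to 4, against 14.1, 13.4, 13.7 and 11.9 FPKM in vehicle replicates 1 to 4. The groups were next to each other without overlap, and batch 4 held both the highest Mic-628 and the lowest vehicle value. Jun was 1.15-fold higher with Mic-628 (95% interval 1.07 to 1.23; edgeR adjusted p = 0.0154). The call depended on single libraries. Leaving out Mic-628 replicate 2 or 4 gave an edgeR adjusted p of 0.0635 or 0.0501, and leaving out vehicle replicate 4 gave 0.0577. Leaving out both libraries of batch 2 or of batch 4 gave 0.120 or 0.158. Without batch 4 the log2 fold change was 0.13, against 0.20 with all libraries, and the adjusted p over the 26 other settings ran from 0.000571 to 0.688. With the batch as a block Jun was called in edgeR (adjusted p = 0.0378) and not in DESeq2 (0.194).

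Junb (ENSMUST00000064922.7, chromosome 8, 85703539 to 85705347, minus strand) encodes a weaker activator that can oppose c-Jun at many sites. It had 21.6, 24.3, 23.5 and 23.5 FPKM in Mic-628 replicates 1 to 4, against 30.1, 28.4, 25.7 and 25.9 FPKM in vehicle replicates 1 to 4. The highest Mic-628 library was below the lowest vehicle library, and vehicle replicates 1 and 2 stood highest. Junb averaged 23.2 ± 1.15 FPKM with Mic-628 and 27.6 ± 2.11 FPKM with vehicle (SD, n = 4 each). The fold change was 0.846 (95% interval 0.789 to 0.906; edgeR adjusted p = 0.00303). Junb was lower in 4 of 4 batch pairs, as the lack of overlap requires. The log2 difference was largest in batch 1, -0.47, and was -0.23, -0.13 and -0.14 in batches 2 to 4. Without batch 1 the log2 fold change of Junb was -0.17 and it was still called (edgeR adjusted p = 0.0258). By limma-trend on log2(FPKM + 1) it was not (adjusted p = 0.0810).

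Jund, the JUN gene that resting cells express steadily, had 44.5, 53.6, 49.3 and 49.5 FPKM in Mic-628 replicates 1 to 4, against 52.0, 46.6, 48.2 and 47.5 FPKM in vehicle replicates 1 to 4. The groups overlapped throughout, and Mic-628 replicates 1 and 2 held the lowest and the highest value of all 8. Its log2 fold change was 0.02 (95% interval -0.07 to 0.11; edgeR adjusted p = 0.856). A row on the opposite strand, Gm11175, lies wholly inside the Jund transcript, with a mean of 657 counts with Mic-628 and 650 counts with vehicle.

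The JUN genes were also compared with each other, as the log2 ratio of 2 genes in each library. The CPM of Jun and of Junb had each separated the groups, in opposite directions. The Junb to Jun ratio therefore had to separate them too, and its p below could not have come out otherwise. Any 2 of the 3 ratios also fix the other, so they are not 3 separate results. Junb relative to Jun was -0.20 ± 0.057 with Mic-628 and 0.24 ± 0.098 with vehicle (SD, n = 4 each), a difference of -0.44. Junb counts were thus below Jun counts in all 4 Mic-628 libraries and above them in all 4 vehicle libraries. Counts follow transcript length as well as level, so this crossing is on the count scale; per length, Junb stayed above Jun in both groups. Junb relative to Jund differed by -0.26, and Jun relative to Jund by 0.18. For each of the 3 pairs the groups did not overlap, and a two-sided exact permutation test gave p = 0.0286, which no split of 4 against 4 can go below, and again 0.0286 after Benjamini-Hochberg adjustment over the 3 pairs. Within batches the Junb to Jun difference ran from -0.57 to -0.22, and the Jun to Jund difference from 0.042 in batch 2 to 0.37 in batch 4. A sign-flip test of 4 pairs cannot pass 0.05. By FPKM, Junb made up 26.5% ± 0.459 of the summed JUN genes with Mic-628 and 30.8% ± 1.19 with vehicle, and Jun 17.4% ± 0.661 with Mic-628 and 14.8% ± 0.732 with vehicle (SD, n = 4 each). Their sum was 87.7 ± 5.54 FPKM with Mic-628 and 89.4 ± 4.75 FPKM with vehicle, within the spread of the libraries.

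**Figure D2:**
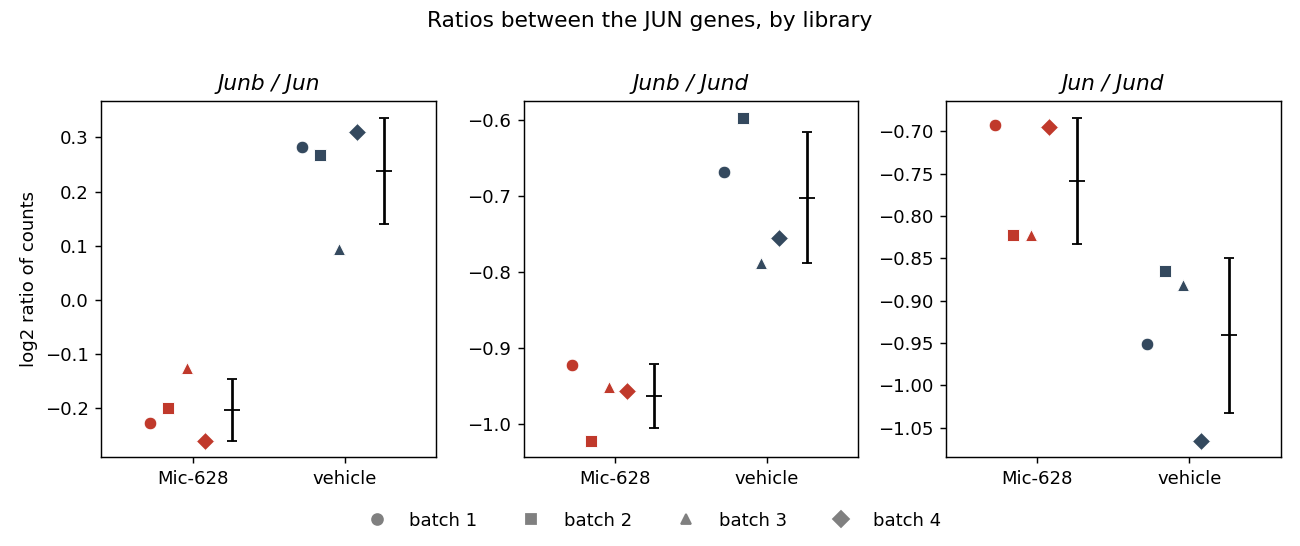
Log2 ratio of counts between 2 JUN genes (vertical axis, own scale for each pair, not starting at 0) in the Mic-628 libraries (red) and the vehicle libraries (dark blue), with shapes for batches and black bars for the mean ± SD. The Mic-628 libraries lie below the vehicle libraries for Junb over Jun and Junb over Jund, and above them for Jun over Jund.

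Among the FOS genes only Fosl2 was called. Fosl2 (ENSMUST00000031017.11, chromosome 5, 32293145 to 32315186, plus strand) encodes FRA-2, a FOS protein without the strong activation domain of c-Fos. It had 37.2, 38.8, 36.2 and 38.2 FPKM in Mic-628 replicates 1 to 4, against 42.9, 45.4, 43.8 and 40.5 FPKM in vehicle replicates 1 to 4. The groups did not overlap, and batch 4 had the smallest gap. The fold change of Fosl2 was 0.872 (log2 fold change -0.20, 95% interval -0.27 to -0.13; edgeR adjusted p = 0.000846). It was lower in 4 of 4 batch pairs, as the lack of overlap requires, with log2 differences from -0.28 in batch 3 to -0.082 in batch 4. A row on the opposite strand overlaps its last part, with a mean of 315.5 counts with Mic-628 and 369 counts with vehicle. With those counts taken off, the log2 fold change of Fosl2 was -0.20 (edgeR adjusted p = 0.000899).

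Fosl1, which encodes FRA-1, a FOS protein kept up by ERK signalling, had 24.6, 25.9, 23.3 and 22.8 FPKM in Mic-628 replicates 1 to 4, against 24.5, 23.6, 22.3 and 21.4 FPKM in vehicle replicates 1 to 4. It was slightly higher in 4 of 4 batch pairs, but the groups overlapped. Its fold change was 1.05 (95% interval 0.982 to 1.12; edgeR adjusted p = 0.475). The end of Fosl1 overlaps Ccdc85b on the opposite strand, which had a mean of 1792 counts with Mic-628 and 1883 counts with vehicle, more than Fosl1 itself. The kit keeps strand, but whether the counts used it is not given in the sources used here, so the reads of the 2 rows may not be separable. By FPKM, Fosl2 made up 59.9% ± 1.26 of the summed FOS genes with Mic-628 and 64.4% ± 1.14 with vehicle, and Fosl1 38.4% ± 1.17 with Mic-628 and 34.3% ± 1.14 with vehicle (SD, n = 4 each). The immediate early FOS genes were nearly absent from that sum: Fos and Fosb together stayed below 2% of it in every library.

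Fos itself was close to the limit of detection. It had 14, 21, 22 and 21 counts in Mic-628 replicates 1 to 4, against 10.5, 10, 12 and 13 counts in vehicle replicates 1 to 4, or 0.407 ± 0.0499 FPKM with Mic-628 and 0.239 ± 0.0288 FPKM with vehicle (SD, n = 4 each). All 4 Mic-628 libraries were above all 4 vehicle libraries. With so few reads the fold change of Fos was 1.73 with a wide 95% interval of 1.23 to 2.43, and it missed the threshold (edgeR unadjusted p = 0.00313, adjusted p = 0.0625). The adjusted p of Fos lay between 0.0596 and 0.272 in the alternatives that gave one. DESeq2 gave an unadjusted p of 0.0231 and no adjusted p. Within batches the log2 difference in CPM of Fos ran from 0.62 in batch 1 to 0.93 in batch 2.

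Fosb, which neurons and serum-stimulated fibroblasts induce with Fos, had 0.749, 0.766, 0.572 and 0.538 FPKM in Mic-628 replicates 1 to 4, against 0.662, 0.594, 0.687 and 0.667 FPKM in vehicle replicates 1 to 4. The Mic-628 libraries fell above the vehicle range in batches 1 and 2 and below it in batches 3 and 4. Its fold change was 1.01 (95% interval 0.821 to 1.24; edgeR adjusted p = 0.979), and its sign turned in 7 of 26 other settings.

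**Figure D3:**
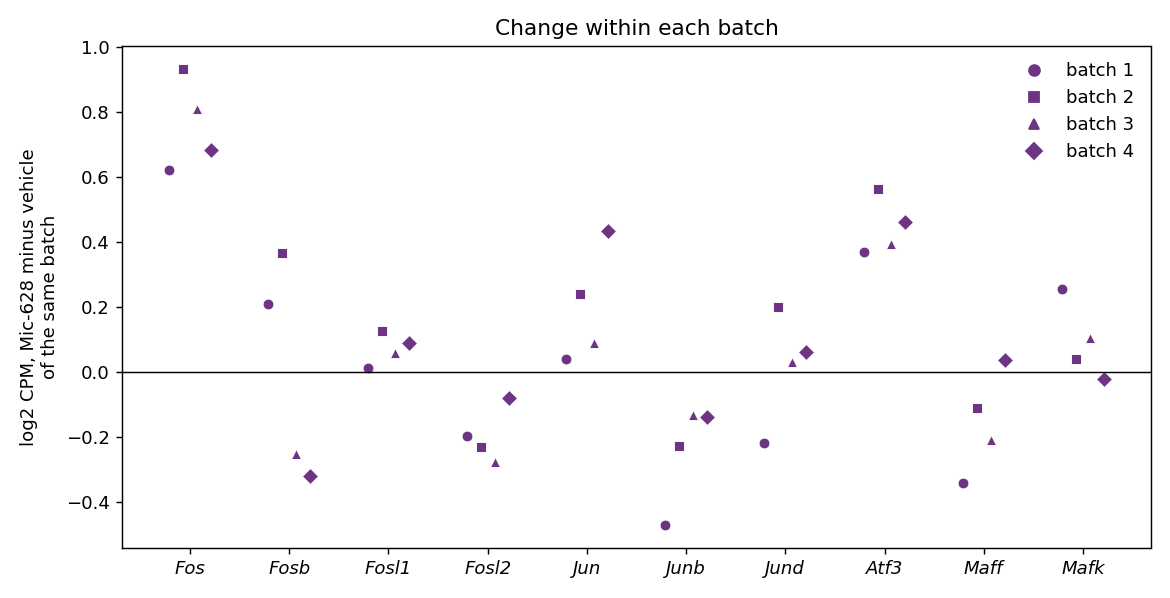
Difference in log2 CPM between the Mic-628 and the vehicle library of the same batch (vertical axis) for each gene, 1 point per batch. Fos, Fosl1, Jun and Atf3 lie above 0 in all 4 batches, Fosl2 and Junb below 0 in all 4, and Fosb from 0.36 in batch 2 to -0.32 in batch 4. For Fos, Jun, Atf3, Fosl2 and Junb the groups did not overlap, so any pairing of the libraries gives that sign.

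Neither small MAF gene was called. Maff, the member that stress and inflammatory signals induce, had 9.51, 10.7, 9.58 and 9.54 FPKM in Mic-628 replicates 1 to 4, against 12.1, 11.6, 11.1 and 9.32 FPKM in vehicle replicates 1 to 4. Vehicle replicate 4 was the lowest of all 8 libraries, and the other vehicle libraries were above all Mic-628 libraries. The fold change of Maff was 0.896 (95% interval 0.814 to 0.987; edgeR adjusted p = 0.219). Without vehicle replicate 4 its log2 fold change was -0.23 and it was called (edgeR adjusted p = 0.0263). Without any other single library it was not (0.133 to 0.445). Mafk, the more evenly expressed partner, had 11.6, 11.4, 11.5 and 10.8 FPKM in Mic-628 replicates 1 to 4, against 9.75, 11.1, 10.7 and 10.97 FPKM in vehicle replicates 1 to 4. The groups overlapped, and Mafk had a fold change of 1.06 (95% interval 0.994 to 1.14; edgeR adjusted p = 0.344). The log2 ratio of Maff to Mafk counts was -0.81 ± 0.090 with Mic-628 and -0.56 ± 0.22 with vehicle (SD, n = 4 each).

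**Figure D4:**
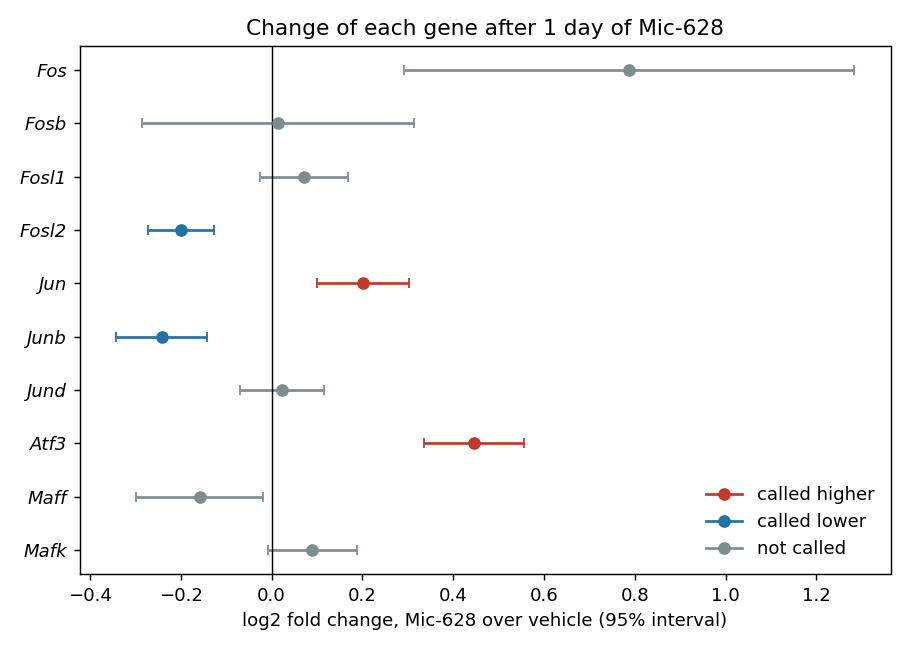
Log2 fold change of each gene, Mic-628 over vehicle (horizontal axis), with its 95% interval; red marks genes called higher, blue genes called lower and grey genes not called. Atf3 at 0.45 and Jun at 0.20 are called higher, Fosl2 at -0.20 and Junb at -0.24 called lower, and the interval of Fos is the widest.

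Per length of exon the family spanned a wide range of levels. With Mic-628 the order was Jund (49.2 FPKM), Fosl2 (37.6), Atf3 (26.3), Fosl1 (24.1), Junb (23.2), Jun (15.2), Mafk (11.3), Maff (9.84), Fosb (0.656) and Fos (0.407). With vehicle it was Jund (48.6 FPKM), Fosl2 (43.2), Junb (27.6), Fosl1 (23.0), Atf3 (19.3), Jun (13.2), Maff (11.01), Mafk (10.6), Fosb (0.653) and Fos (0.239). Atf3 stood ahead of Fosl1 and Junb with Mic-628 and behind both with vehicle. With Mic-628 the ranges of Atf3 and Fosl1 overlapped, as did those of Fosl1 and Junb. With vehicle the overlapping neighbours were Jun with Maff, and Maff with Mafk. Jund was above 92.3% of the rows tested by its mean FPKM over all libraries, and Fos above 4.204% of them.

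The rest of the pathway was looked at in 6 lists, beside the 4.37% of all rows called. Of 24 other bZIP partners 15 were tested, with 0 called higher, 2 called lower and a median log2 fold change of -0.04. Atf5, an ATF4-related stress factor gene, fell (log2 fold change -0.16; edgeR adjusted p = 0.00143), and so did Cebpd (-0.24; 0.0236), a C/EBP gene, which was not called by DESeq2 (0.217, and 0.0659 with the batch block), without any one Mic-628 replicate, or without vehicle replicate 1 or 2 (0.0531 to 0.0689). Without vehicle replicate 1 the log2 fold change of Cebpd was -0.14. Cebpb (-0.17; 0.0792) and Ddit3 (-0.10; 0.0989) were not called. Cebpb was called in 4 other settings: with no low-count filter (0.000651) and without vehicle replicate 2 (0.0389), vehicle replicate 4 (0.0336) or batch 4 (0.0173). Ddit3 was called in 1, without vehicle replicate 1 (0.0405). Of 9 genes for SRF, its cofactors and MEF2 factors (median -0.04), 1 rose: Mef2d, whose product acts on the Jun promoter (0.20; 0.00536), which was not called without batch 2 (0.103). Elk3 (-0.08), Mef2c (0.18) and Elk1 (-0.08) were not called. None of the 27 tested MAP kinase cascade genes (of 30; median -0.0052) was called, the smallest p being those of Map3k20 (0.15; edgeR adjusted p = 0.130), Map2k3 (0.12; 0.144), Mapk7 (-0.11; 0.151) and Rps6ka3 (0.08; 0.254). None of the 15 genes of AP-1 protein and mRNA turnover (median 0.02) was called either. Zfp36l2 (0.08; edgeR adjusted p = 0.255), Cop1 (0.08; 0.285) and Itch (0.05; 0.408) were among those of smallest p. Mapk7 was called in 1 other setting, without vehicle replicate 1 (edgeR adjusted p = 0.0466).

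Of 32 known AP-1 target genes 27 were tested: 2 went up and 4 down, around a median of -0.0068 on the log2 scale, against -0.0040 over all rows. Nqo1, a quinone reductase gene also driven by NRF2 with small MAF proteins, rose (log2 fold change 0.23; edgeR adjusted p = 0.0137) but was not called without batch 3 (0.163) or batch 4 (0.0785), nor when either replicate 3 was dropped (Mic-628, 0.0646; vehicle, 0.0532), nor by DESeq2 with the batch block (0.238). Spp1, the osteopontin gene, fell (-0.33; edgeR adjusted p = 5.29e-07), and so did the chemokine gene Ccl2 (-0.62; 0.000120). Tnc, the tenascin-C gene (-0.16; 0.0312), and the metallothionein gene Mt1 (-0.21; 0.0398) fell narrowly. With single libraries left out, the adjusted p of Mt1 reached 0.205. Tnc was not called without any one of Mic-628 replicates 2 to 4 or vehicle replicates 2 to 4, nor with the batch block in edgeR (0.0659) or DESeq2 (0.681), and Mt1 was not called without any one of Mic-628 replicates 1 to 3 or vehicle replicates 1 and 2, nor by DESeq2 without or with the batch block (0.343 and 0.737). The collagenase and stromelysin genes Mmp3, Mmp9, Mmp10 and Mmp13 were too low to be tested.

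Of 27 other immediate early genes 26 were tested, with 5 called higher, 1 called lower and a median log2 fold change of 0.02. Klf10, a TGF-beta-inducible repressor gene, had 39.9 ± 1.05 CPM with Mic-628 and 30.6 ± 0.717 CPM with vehicle (SD, n = 4 each; log2 fold change 0.39; edgeR adjusted p = 1.16e-06). The phosphatase gene Dusp1, whose product switches off JNK and p38, rose (0.41; 9.33e-05), as did the growth arrest gene Gadd45b (0.27; 0.000138), the matricellular gene Ccn1 (0.23; 0.000175) and Klf4 (0.23; 0.000280). Nfil3, itself a bZIP gene and part of the clock network, fell (-0.55; edgeR adjusted p = 3.31e-09). Egr1 (0.01), Ier2 (0.01) and Myc (0.02), chosen after their values were seen as familiar serum-response genes, were not called.

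For each called gene, the 3 genes with the most similar course over the 8 libraries were sought among 10013 rows. The measure was the root mean square difference of mean-centred log2 CPM. These rows had a mean CPM of at least 5 but were not all rows at that level, so closer rows may exist. For Atf3 the 3 genes were Tatdn2 (0.065), Rgs20 (0.074) and Cryab (0.076). For Jun they were Bbs5 (0.040), Ubxn2a (0.043) and Apmap (0.046), for Junb Kdelr3 (0.036), Hdac11 (0.039) and Ccnd3 (0.044), and for Fosl2 Itpk1 (0.024), Col6a1 (0.026) and Enpp5 (0.032). Of these neighbours Bbs5 (edgeR adjusted p = 0.181), Apmap (0.315) and Enpp5 (0.301) were not called, and the others were. With a small change and 8 libraries, many rows come close to such a course, and these names are a description only.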

How the data were processed

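Poly(A) RNA of 8 NIH3T3 samples, 4 per group, was sequenced as stranded paired-end libraries, per the labels' protocols. The submitters' processing notes name bcl2fastq, STAR 2.7.10a, HOMER 4.11 and GRCm39 (mm39) without their roles. The authors deposited read counts per transcript row, which come in steps of 0.5 and were treated as estimated counts, and a table of FPKM. FPKM computed anew from counts, exon length and header totals was within 5e-04 of the authors' FPKM.

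Rounded counts went into edgeR 4.0.16 under R 4.3.3 (filterByExpr with minimum count 10, TMM, quasi-likelihood F test, no block), adjusted over 17128 rows by Benjamini-Hochberg. Called means an adjusted p under 0.05. The 95% interval is from the standard error, the log2 fold change over the square root of F. The fit was tested on simulated data. No libraries of a group agreed within counting noise (chi-square per gene 1.74 to 5.79).

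The labels give a shared batch number, and libraries of the same number are taken as pairs here. Over 10292 genes, deviations from the group means correlated between same-numbered libraries at -0.0925, 0.0744, -0.0213 and -0.0949. Between libraries of different number they ran from -0.117 to 0.141, so same-numbered libraries were not more alike by this measure.

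The genes, the 6 lists and the tests were chosen with earlier results of these data known. All 10 genes were to be named, with up to 4 genes of smallest p per list; some items are not reported here. Motifs were those of the plan plus TGACG, added after. Tnc, Mt1, Klf4 and Ccn1 are named beyond that rule, as the other called genes of their lists. Alternatives were the batch block, DESeq2 1.42.0, other scalings and filters, a threshold of 0.01, and leaving out libraries or batches. Further ones used limma 3.58.1 (voom, and trend on log2(FPKM + 1) or log2(FPKM + 0.1), keeping rows whose mean FPKM reached 0.5, or on all rows). Subtracting overlapping rows, for Fosl2, Jund and Maff only, was chosen after seeing the data. Promoters are from RefSeq (GRCm38.p6), not the mm39 build of the counts. Figures used matplotlib 3.10.9 in Python 3.11.15.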

Additional observations from a re-analysis of the deposited data

Results flagged for a closer look

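Each of the 10 genes was screened in both groups, 20 groups of 4 libraries, for a library far from the other 3. Chance gives such a mark in about 1 of 20 groups, and 2 were marked. Atf3 had 59.6 CPM in Mic-628 replicate 4, above the other 3 Mic-628 libraries, which had 51.6 to 52.6 CPM; without that library the log2 fold change of Atf3 was 0.40 (edgeR adjusted p = 1.04e-05). Maff had 21.6 CPM in Mic-628 replicate 2, above the other 3 Mic-628 libraries at 19.2 to 19.3 CPM; without it the log2 fold change of Maff was -0.20 (edgeR adjusted p = 0.133).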

How the results depend on the processing

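The count of called genes was 4 of 10 with the batch number as a replicate block in edgeR, in DESeq2 and under 3 other scalings. It was also 4 with both other filters, limma-voom and overlapping rows subtracted, and 3 to 4 without any single library. The subtraction covered Fosl2, Jund and Maff only. Fosl1 was left as counted, so the part of Ccdc85b in its value was not tested. Without vehicle replicate 4 the count of called genes was 4, but Jun was lost (edgeR adjusted p = 0.0577) and Maff was called (0.0263). The count was 3, Jun being lost, without Mic-628 replicate 2 or 4, without batch 2, without batch 4, with the block in DESeq2 and at a threshold of 0.01. By limma-trend it was 2 on log2(FPKM + 1), 2 on log2(FPKM + 0.1) (Atf3 and Fosl2 both times), and 0 over all rows, where more rows are tested; Atf3 and Fosl2 then had an adjusted p of 0.141 and 0.263, and the cause was not tested. Atf3, Jun, Junb and Fosl2 kept their direction in all 26 settings. Over all rows 749 were called, 426 to 802 without one library (438 without Mic-628 replicate 3 and 426 without vehicle replicate 2), 624 with the block in edgeR, 253 with the block in DESeq2 (577 without), 277 and 273 by limma-trend on FPKM, 101 over all rows, 330 at a threshold of 0.01, 331 without batch 2 and 292 without batch 3. The block changed no other call of the 10 genes. Of the 10 genes only Fosb and Jund turned sign, both uncalled in every setting. Fosb was at -0.0017 by limma-voom, -0.0045 by limma-trend on log2(FPKM + 0.1), -0.074 to 0.104 with single libraries left out (-0.074, -0.052 and -0.031 where Mic-628 replicate 2, Mic-628 replicate 1 or vehicle replicate 2 was dropped), -0.046 without batch 1 and -0.12 with batch 2 left out. Jund was at -0.020 to 0.065 with single libraries left out (-0.020 where Mic-628 replicate 2 was dropped) and -0.036 without batch 2. All 3 JUN ratios were called with either other pseudocount. With a library left out only their values were computed, and no exact test was run. Fos rests on 10 to 22 counts per library, and the stricter filter and the FPKM filter left it no value.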
